A study of Mus musculus with 48 samples.

Results

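The enzymes that break tryptophan down through kynurenine were measured as transcripts in the livers of 48 mice. The mice had been put on their diets at 3 weeks of age and were culled at 15 months, and the diets differed in macronutrient composition and in an energy level labelled high, medium or low. The genes were a list of 8 pathway enzymes, Tdo2, Ido2, Afmid, Kmo, Kynu, Haao, Acmsd and Qprt, and each was taken as its probe set with a unique gene symbol and the highest mean over the arrays. All 8 of 8 were found among 22180 genes, each on 1 probe set, and 8 of 8 passed the filter on low values that left 16926 genes for testing. The probe sets were 17406186 for Tdo2, 17508174 for Ido2, 17258851 for Afmid, 17219789 for Kmo, 17370527 for Kynu, 17347650 for Haao, 17216779 for Acmsd and 17496589 for Qprt.

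A diet is written as percent of energy from protein/carbohydrate/fat. The 48 mice fell into 20 combinations of energy level and composition with 1 to 4 mice each, 29 mice at high, 14 at medium and 5 at low energy. There were 10 mice at 5% protein, 9 at 14%, 9 at 23%, 9 at 33%, 5 at 42% and 6 at 60%. All 10 mice at 5% protein were on high energy diets, of composition 5/20/75 (2 mice), 5/48/48 (4) and 5/75/20 (4), and the 6 mice at 60% were on 60/20/20, 3 at high and 3 at low energy. All mice fed ad libitum and were kept 3 to a cage. The labels gave no strain, sex or cage for a mouse, so p-values measure the spread between mice as if each were independent.

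The liver takes up most of the tryptophan that is not used for protein and degrades it in hepatocytes. Tdo2 (tryptophan dioxygenase) opens the indole ring, the step that commits tryptophan to this route, and is known as a glucocorticoid-responsive liver enzyme; Ido2 catalyses the same reaction with low affinity. Afmid removes the formyl group to give kynurenine, Kmo hydroxylates it, Kynu cleaves off alanine, and Haao opens the aromatic ring to give aminocarboxymuconate semialdehyde. The route forks there. Acmsd decarboxylates the semialdehyde and sends the carbon on to oxidation, whereas semialdehyde that escapes Acmsd closes on its own to quinolinate, which Qprt turns into nicotinate mononucleotide for NAD.

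Start-site sequences of 5 of the 8 enzymes were used, from RefSeq on build GRCm38.p6. They are shown for Tdo2 and Haao, whose levels rose with dietary protein, and for Qprt, which did not pass that test. Each run is the 250 bases before the annotated start, read 5′ to 3′ on the strand of the gene: Tdo2 at chr3:81975729-81975978 (minus strand), Haao at chr17:83846791-83847040 (minus) and Qprt at chr7:127122030-127122279 (minus). Capitals mark matches to 8 short motifs searched on both strands.
Tdo2: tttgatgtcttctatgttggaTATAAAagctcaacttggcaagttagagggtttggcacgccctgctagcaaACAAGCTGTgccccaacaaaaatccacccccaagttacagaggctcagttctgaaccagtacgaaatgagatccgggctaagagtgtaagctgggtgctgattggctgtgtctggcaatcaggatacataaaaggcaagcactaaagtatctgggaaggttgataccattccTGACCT
Haao: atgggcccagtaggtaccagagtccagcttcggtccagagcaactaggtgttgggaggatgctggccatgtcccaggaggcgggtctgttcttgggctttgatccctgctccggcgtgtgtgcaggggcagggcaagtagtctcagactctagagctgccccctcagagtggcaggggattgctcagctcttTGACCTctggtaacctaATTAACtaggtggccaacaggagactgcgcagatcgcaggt
Qprt: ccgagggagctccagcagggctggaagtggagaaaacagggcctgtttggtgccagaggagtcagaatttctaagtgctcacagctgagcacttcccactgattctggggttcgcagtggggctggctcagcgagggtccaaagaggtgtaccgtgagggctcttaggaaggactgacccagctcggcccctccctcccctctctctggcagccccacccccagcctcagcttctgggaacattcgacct

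The nuclear receptor core AGGTCA, read as TGACCT on the gene's strand, lay 58 to 53 bases before the start of Haao and 6 to 1 before that of Tdo2. It was present in 14.02% of the 32851 mouse promoter windows of the same length. Tdo2 also held TATAAA (in 12.37% of windows) and the glucocorticoid receptor pattern ACANNNTGT (5.835%), and Haao held the HNF1 core GTTAAT (6.432%). Kmo, not printed, held the HNF4 core CAAAGT (12.55%). None of the 8 motifs was in the windows of Qprt or Afmid; the other motifs searched were the C/EBP core TTGCNNAA (9.564%), the D-box TTATGNAA (3.068%) and the E-box CACGTG (6.021%). No overlap between motif matches occurred in the 3 windows printed, and a match describes the letters only.

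The arrays carried liver. The mean of 7 hepatocyte markers (Alb, Ttr, Ahsg and others) lay between 10.85 and 11.73 on the log2 scale, and that of 8 kidney tubule markers, the other organ rich in Acmsd, between 1.01 and 1.54. The mean of 10 Kupffer cell and macrophage markers was 5.44 to 7.24 at 5% protein and 5.64 to 6.79 at 60%, and 0 of the 10 passed the test against protein, although 0 of their slopes were positive (median -0.10). Of the stellate cell markers, 1 of 8 fell with protein, the collagen gene Col1a1 (-0.32 ± 0.091, adjusted p = 0.0278, and 0.486 with the interquartile range of the array as a term), and 1 of 8 slopes was positive. Their mean was 6.15 to 7.39 at 5% protein and 5.53 to 6.27 at 60%. Of 7 endothelial and 8 lymphocyte markers 0 passed and 1 slope in each list was positive. Of the hepatocyte markers, 1 of 7 rose, Cps1, the carbamoyl phosphate synthetase of the urea cycle (0.15 ± 0.022, adjusted p = 1.57e-05). With the macrophage mean as a term in the protein model described next, the slopes of Acmsd (0.50), Kynu (0.19) and Tdo2 (0.19) passed. That of Haao (0.14, adjusted p = 0.0573) did not. In that fit 709 of all 16926 genes passed, against 1187 without the term. The part of the other marker lists was not tested. The interquartile range of an array's values fell with protein, from a mean of 3.48 ± 0.13 (SD, n = 10) at 5% to 3.16 ± 0.20 (n = 6) at 60%. The labels gave no sex, so the mean level of Y-linked genes minus that of Xist was taken as a reading of it. This Y-linked minus Xist value was above 0 in 6 of 10 mice at 5% and 5 of 9 at 14%. At 23% it was above 0 in 3 of 9 mice and at 33% in 5 of 9. At 42% it was above 0 in 1 of 5 mice and at 60% in 4 of 6. In bulk liver, fewer cells of a type and less RNA per cell cannot be told apart.

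The transcripts of 4 of the 8 enzymes, Tdo2, Kynu, Haao and Acmsd, rose with dietary protein and 0 fell. Slopes on protein are log2 differences per 10 points of energy supplied as protein in place of equal amounts of carbohydrate and fat, from a limma model that also held the carbohydrate-fat exchange and energy level. Of all 16926 genes, 7.01% passed an adjusted p of 0.05 and 3.37% passed upward. The median slope of the 8 enzymes was 0.13, against -0.0019 over all genes. These are the entry (Tdo2), the cleavage and ring opening in the middle (Kynu, Haao) and the oxidative exit (Acmsd). The slopes of Ido2, Afmid, Kmo and Qprt did not pass the test.

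**Figure D1:**
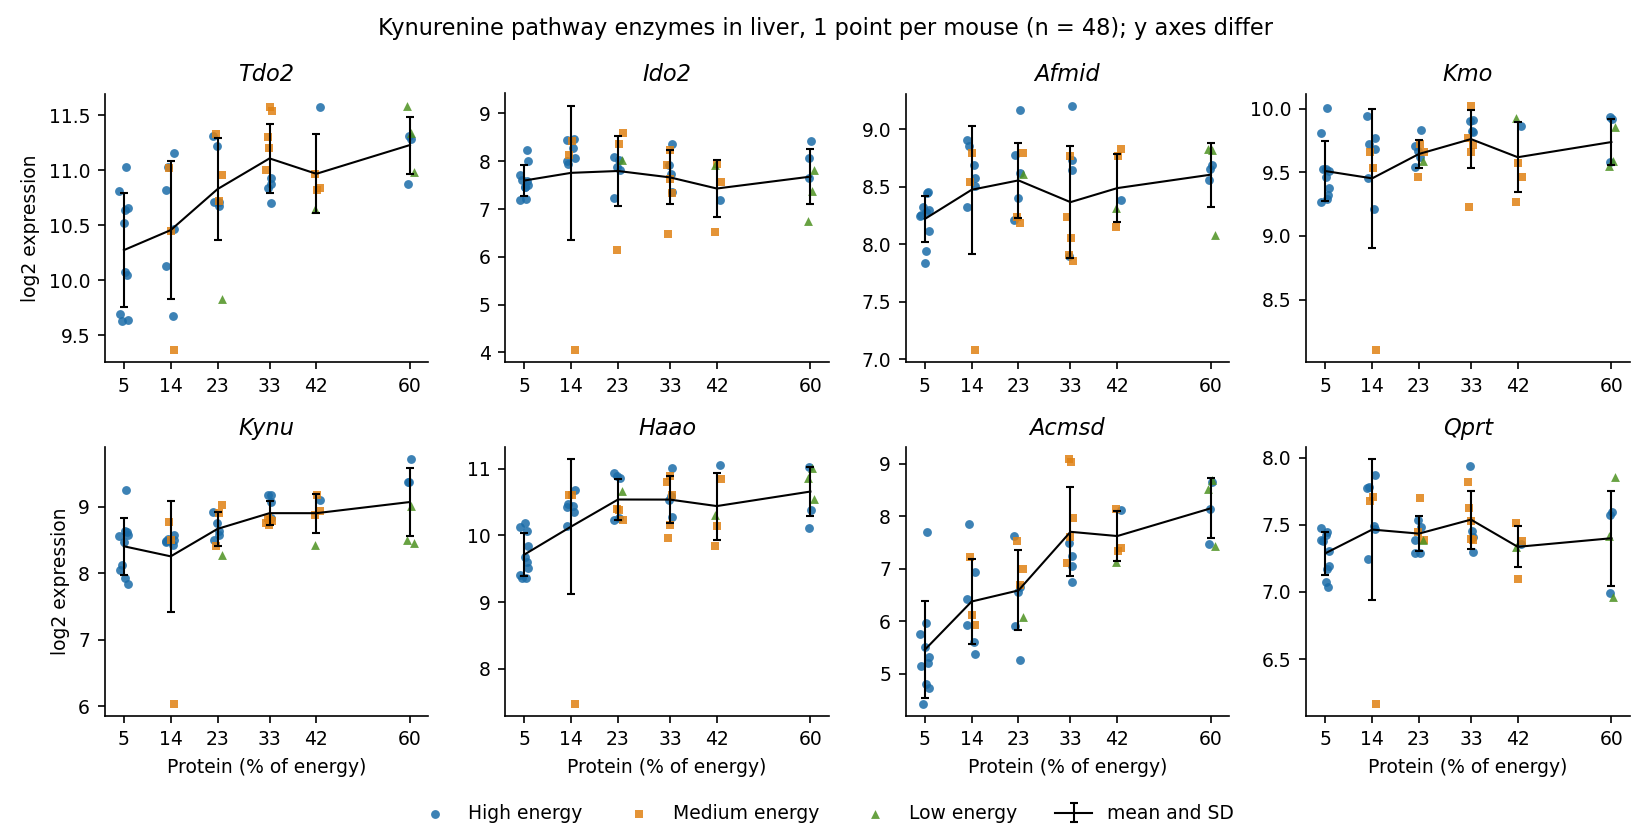
Log2 expression (y axis, a separate scale for each enzyme) against percent of energy from protein (x axis) in 48 mice, with 1 point per mouse, marker and colour for energy level, and the mean and SD at each share. Acmsd climbs from a mean of 5.46 at 5% to 8.15 at 60%, Qprt runs from 7.29 to 7.40, and 1 medium energy mouse at 14% lies below all others for 7 of the 8 enzymes.

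Tdo2 levels at 5% protein had a lowest value of 9.63, a median of 10.30 and a highest of 11.03 over 10 mice. At 60% they had a lowest value of 10.88, a median of 11.30 and a highest of 11.59 over 6 mice. The ranges overlapped narrowly: 9 of 10 mice at 5% lay below the lowest at 60%, and 4 of 6 at 60% lay above the highest at 5%. The means by protein share were 10.28, 10.46, 10.83, 11.11, 10.97 and 11.23, in the order 5% to 60%, a difference of 0.96 between the ends (1.94-fold). The slope was 0.22 ± 0.042 (SE, limma, adjusted p = 0.00126). The protein term accounted for 37.6% of the variance left by the carbohydrate-fat exchange and energy level terms.

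Ido2, the low-affinity enzyme for the same reaction, did not follow. Its means were 7.60 ± 0.32 (SD, n = 10) at 5% and 7.68 ± 0.58 (n = 6) at 60%, with the highest mean at 23% (7.80) and the lowest at 42% (7.43). Its slope was 0.034 ± 0.069 (limma, adjusted p = 0.774), with a 95% interval of -0.10 to 0.17 that still contains changes of moderate size. Without the medium energy 14/29/57 mouse, whose value of 4.05 was the lowest of the 48, the slope was -0.018.

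In the middle of the pathway, Afmid and Kmo had small positive slopes that did not pass. Afmid, the formamidase, had means of 8.22 ± 0.20 at 5% (n = 10) and 8.61 ± 0.28 at 60% (n = 6) and a slope of 0.071 ± 0.036 (adjusted p = 0.192). Kmo, the hydroxylase of the outer mitochondrial membrane, had means of 9.51 ± 0.23 and 9.74 ± 0.18 and a slope of 0.070 ± 0.028 (adjusted p = 0.107). Both passed when the slope was fitted on the log2 of the protein share, with adjusted p of 0.0493 for Afmid and 0.0355 for Kmo; that fit called 3652 genes, 21.6% of all tested.

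Kynu, the pyridoxal phosphate-dependent kynureninase, rose by 0.23 ± 0.039 per 10 points (limma, adjusted p = 0.000286). At 5% its lowest, median and highest values were 7.84, 8.52 and 9.26, and at 60% they were 8.45, 9.19 and 9.71. The ends overlapped more than those of Tdo2, with 4 of 10 mice at 5% below the lowest at 60%. Among the 6 mice at 60/20/20 the values were 9.71, 9.38 and 9.37 at high energy and 8.45, 8.51 and 9.01 at low energy. This difference did not pass in limma (adjusted p = 0.166), where 0 of 16926 genes did.

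Haao, the dioxygenase that opens the remaining ring, had a lowest value of 9.36, a median of 9.64 and a highest of 10.19 at 5%, and 10.12, 10.71 and 11.03 at 60%. Of the mice at 60%, 5 of 6 lay above every mouse at 5%. The means were 9.71, 10.13, 10.54, 10.54, 10.44 and 10.66 from 5% to 60%, so that most of the difference of 0.95 between the ends lay below 23% protein. The slope was 0.18 ± 0.052 (limma, adjusted p = 0.0277). This call was the least secure of the 4. It was lost without mouse 3 of the high energy 60/20/20 diet (slope 0.18, adjusted p = 0.062). Without the high energy 42/29/29 mouse it was lost too (slope 0.17, adjusted p = 0.0558). The slope itself moved little, and 620 and 588 of all 16926 genes passed in those fits, against 1187 with all mice.

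Acmsd, the gatekeeper of the oxidative exit, moved most. At 5% protein the 2 mice on 5/20/75 had log2 levels of 4.81 and 4.43. The 4 on 5/48/48 had 5.16, 5.76, 5.20 and 4.72, and the 4 on 5/75/20 had 5.98, 7.71, 5.52 and 5.32. Levels at 5% were thus lowest on the diet richest in fat, and a lone mouse on 5/75/20 stood well above the other 9. At 60/20/20 the values were 8.65, 7.47 and 8.14 at high energy and 7.44, 8.52 and 8.69 at low energy. Of the mice at 5%, 9 of 10 lay below the lowest at 60%, and the mouse at 7.71 was the exception.

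Between those ends, Acmsd had a lowest value of 5.39, a median of 6.13 and a highest of 7.85 at 14%. At 23% the lowest, median and highest were 5.25, 6.65 and 7.62, and at 33% they were 6.74, 7.49 and 9.09. The mice at 42% had 8.11 at high energy, 7.40, 8.15 and 7.34 at medium energy and 7.13 at low energy. Ordered by mean, the shares ran 5%, 14%, 23%, 42%, 33% and 60%, with means of 5.46, 6.38, 6.59, 7.62, 7.70 and 8.15. The SD within a share was 0.47 to 0.92, and neighbouring shares overlapped.

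The slope of Acmsd was 0.52 ± 0.069 per 10 points (limma, adjusted p = 3.42e-06), with a 95% interval of 0.38 to 0.66, and ranked 4 by p among all genes tested. Extended from 5% to 60%, it is a 7.30-fold change; the means at the ends differed by 2.69 on the log2 scale, or 6.46-fold. The protein term accounted for 55.1% of the variance left by the exchange and energy level terms in Acmsd and 43.2% in Kynu. That share was 20.8% in Haao and 1.35% in Qprt. Within the 29 high energy mice alone the Acmsd slope was 0.51 ± 0.080 (adjusted p = 0.000468), and with the Y-linked minus Xist value as a term it was 0.50 ± 0.063.

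The narrowing of the array range with protein moved with these results. With the interquartile range as a term, 2 of the 8 enzymes passed, Acmsd with a slope of 0.43 (adjusted p = 0.000253) and Kynu with 0.22 (adjusted p = 0.00354), against 0.668% of all genes. Tdo2 then had a slope of 0.14 (adjusted p = 0.0514) and Haao one of 0.087 (adjusted p = 0.524). The slopes of Ido2, Afmid, Kmo and Qprt did not pass in either fit.

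**Figure D2:**
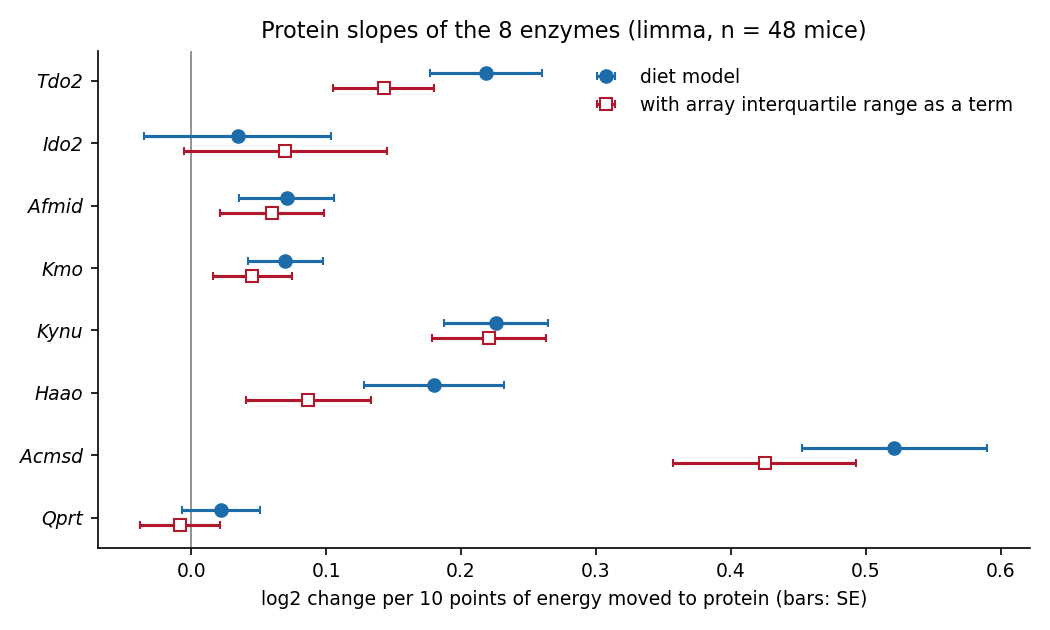
Protein slope of each enzyme (x axis, log2 change per 10 points of energy as protein; bars are SE, n = 48 mice), from the diet model (filled) and with the array interquartile range as a term (open). Acmsd stands at 0.52 and 0.43, Kynu at 0.23 and 0.22, Haao drops from 0.18 to 0.087, and Qprt lies near 0 in both.

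Qprt, the entry to NAD synthesis, had no slope that passed on the same axis. Its values at 5% had a lowest of 7.03, a median of 7.34 and a highest of 7.48, and at 60% a lowest of 6.96, a median of 7.49 and a highest of 7.85. The 10 mice at 5% lay within the range of the 6 mice at 60%. The slope was 0.022 ± 0.029 (limma, adjusted p = 0.641), with a 95% interval of -0.036 to 0.081 per 10 points. That interval lies wholly below the one of Acmsd.

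The difference between the log2 levels of Acmsd and Qprt in the same mouse was used to set both exits of the fork against each other. Levels of different probe sets are not comparable, so only changes in this difference between diets have a meaning. Its mean was -1.83 ± 0.87 (SD, n = 10) at 5% protein, -1.09 ± 0.75 (n = 9) at 14% and -0.85 ± 0.72 (n = 9) at 23%. It was 0.17 ± 0.84 (n = 9) at 33%, 0.29 ± 0.41 (n = 5) at 42% and 0.75 ± 0.72 (n = 6) at 60%, higher at each larger share. From 5% to 60% Acmsd gained 2.58 log2 units on Qprt, and 5 of 6 mice at 60% lay above every mouse at 5%. The slope of the difference was 0.50 ± 0.068 per 10 points, with a two-sided permutation p of 1e-05, the smallest that 100000 resamples can give (3e-05 adjusted over 3 tests).

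**Figure D3:**
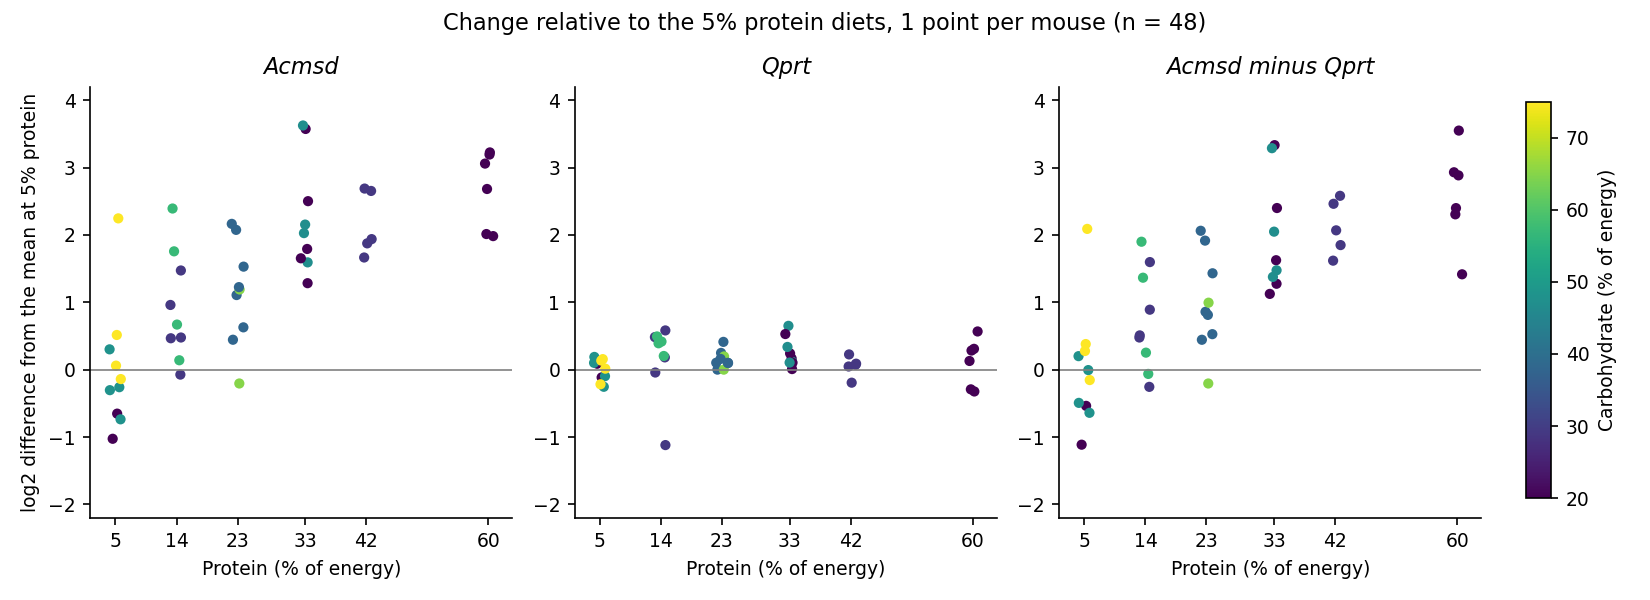
Log2 difference from the mean at 5% protein (y axis, the same scale in 3 panels) against percent of energy from protein (x axis) for Acmsd, Qprt and the Acmsd minus Qprt difference, with 1 point per mouse (n = 48) coloured by percent of energy from carbohydrate. Acmsd climbs by 2.69 between the ends and Qprt ends 0.11 above its start. The difference, which contains Acmsd, climbs by 2.58.

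Steps between neighbouring protein shares were tested with protein as 6 separate levels. Over all genes, 63 genes (0.372%) passed from 5% to 14%, and 0 of the 8 enzymes did. The enzymes with an unadjusted p under 0.05 there were Haao (0.62 ± 0.24, adjusted p = 0.307), Acmsd (0.85 ± 0.34, adjusted p = 0.318) and Afmid (0.39 ± 0.18, adjusted p = 0.371). With array weights 2 enzymes, Haao (0.81) and Afmid (0.46), were among the 592 genes (3.5%) that passed. Without the medium energy 14/29/57 mouse, 126 genes (0.744%) passed this step and Haao was among them, at 0.82 (adjusted p = 0.00255).

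From 14% to 23%, 23% to 33%, 33% to 42% and 42% to 60%, 0 of 16926 genes (0%) passed in limma, with 903, 663, 517 and 644 at an unadjusted p under 0.05. The largest step of an enzyme there was that of Acmsd from 23% to 33%, 1.11 ± 0.35, which did not pass. From 33% to 42% Acmsd differed by -0.11 ± 0.41, and from 42% to 60% by 0.87 ± 0.47. Kynu differed by 0.013 ± 0.20 from 5% to 14% and by 0.42 ± 0.20 from 14% to 23%. Whether these steps differ from each other was not tested.

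Carbohydrate against fat gave no call for any enzyme. The exchange slope, per 10 points of energy given as carbohydrate in place of fat at a fixed protein share, passed for 0 of 16926 genes (0%) in limma, with 665 at an unadjusted p under 0.05. All 8 enzymes had positive slopes with a median of 0.079, against 0.0018 over all genes; without the medium energy 14/29/57 mouse 7 of 8 were positive, and on the high energy diets alone 6 of 8 were. Kynu had the smallest p (0.11 ± 0.042, adjusted p = 0.999), and Acmsd had 0.13 ± 0.075, with a 95% interval of -0.023 to 0.28. The exchange slope of Acmsd minus Qprt was 0.10 ± 0.074 (permutation p = 0.168).

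At a fixed protein share the pairs of compositions can be read side by side. Mean Acmsd at high energy was 4.62 on 5/20/75 (n = 2), 5.21 on 5/48/48 (n = 4) and 6.13 on 5/75/20 (n = 4). At 14% and high energy it was 6.17 on 14/29/57 (n = 4) and 6.73 on 14/57/29 (n = 2), and at 33% the mice had 6.74 and 7.25 on 33/20/47 and 7.05 and 7.49 on 33/47/20. The low carbohydrate diet had the lower mean in these comparisons, but on 23/65/12 (5.95, n = 2) Acmsd was below its level on 23/38/38 (6.70, n = 3). The product of both slopes passed for 0 of 16926 genes (0%), with 652 at an unadjusted p under 0.05 in limma; the smallest adjusted p of an enzyme was 0.967.

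**Figure D4:**
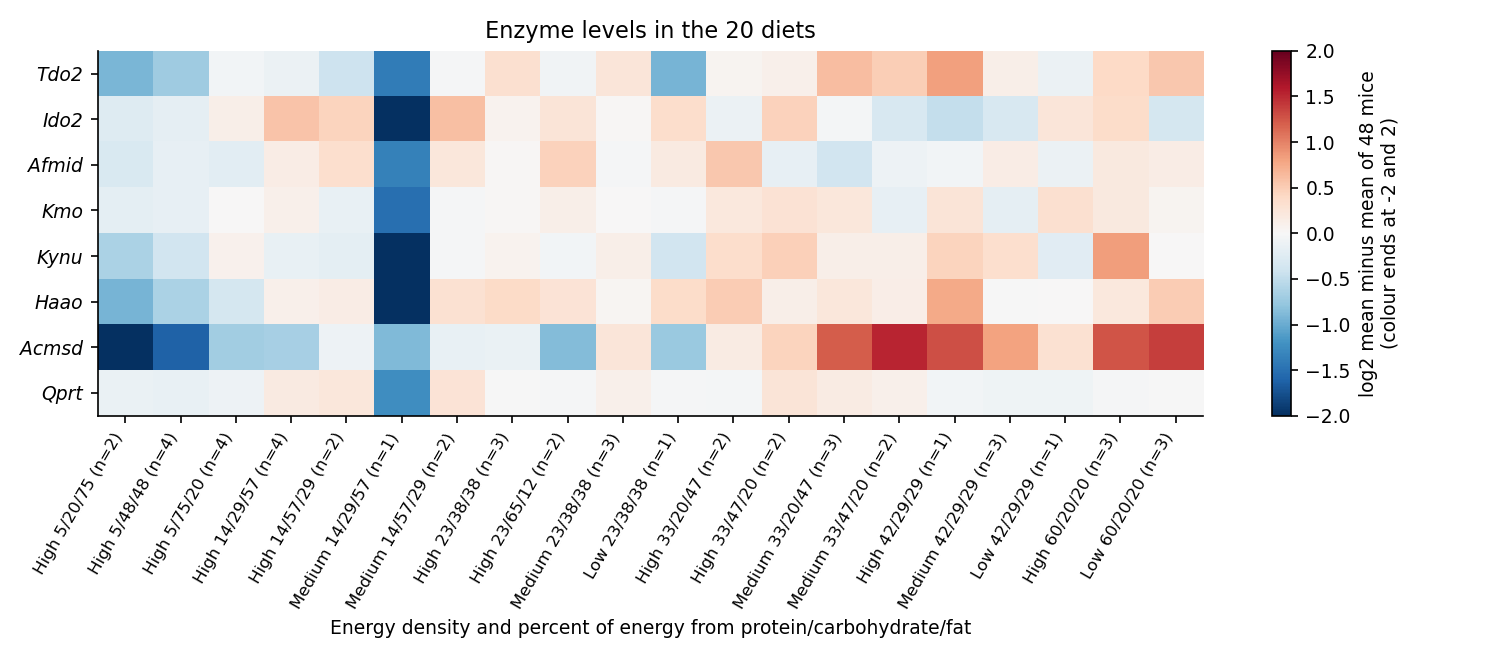
Mean log2 level of each enzyme in the 20 combinations of energy level and composition (columns, ordered by protein share, number of mice in brackets) minus its mean over 48 mice, with colour from -2 to 2. The Acmsd strip turns from below its mean at 5% protein to above it from 33% upward. The Qprt strip stays pale except in the medium energy 14/29/57 column. That column, a single mouse, is dark for 7 of 8 enzymes.

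Energy level was compared as high minus medium in the same model. No gene passed in limma (0 of 16926, 0%), with 1376 at an unadjusted p under 0.05, among them Acmsd (-0.66 ± 0.24, adjusted p = 0.497) and Kmo (0.22 ± 0.097, adjusted p = 0.577). Qprt differed by 0.013 ± 0.10. For the Acmsd minus Qprt difference, tested as 1 value, high minus medium was -0.68 ± 0.24 (permutation p = 0.00657, 0.00986 adjusted over 3 tests), so that Acmsd stood higher relative to Qprt at medium energy.

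Since no mouse at 5% or 60% protein was on medium energy, the 6 compositions fed at both levels (14 mice each) show where this difference lay. The difference was higher at medium energy in 4 of the 6. One of these, 14/29/57, had a single medium energy mouse, in which it was -0.23 against a mean of -1.42 at high energy (n = 4); there Acmsd was 5.94 against 6.17 and Qprt 6.17 against 7.59. On 14/57/29 the means were -0.91 at high and -1.02 at medium energy (n = 2 each), and both levels overlapped. On 33/47/20 it was -0.45 and -0.35 in the high energy mice against 1.46 and 0.22 at medium energy, and on 33/20/47 it was -0.55 and -0.20 against -0.70, 0.57 and 1.51. On 23/38/38 both levels overlapped, with means of -0.71 and -0.44 (n = 3 each). On 42/29/29 the order was turned, with 0.75 in the high energy mouse against 0.022, 0.64 and 0.24 at medium energy. For Acmsd alone, medium energy was higher in 3 of 6 compositions.

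Low and high energy could be compared with 3 mice each at 60/20/20. No gene passed in limma (0 of 16926, 0%; 1710 at an unadjusted p under 0.05). Kynu had the smallest p of the enzymes, -0.83 ± 0.20 for low minus high (adjusted p = 0.166). Acmsd differed by 0.13 ± 0.59, Qprt by 0.024 ± 0.20 and Tdo2 by 0.15 ± 0.28, all smaller than the spread between mice.

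The enzymes also varied together from mouse to mouse. Of 28 pairs, 22 had a correlation with an adjusted permutation p under 0.05 over 48 mice, with a median r of 0.54. The strongest was Tdo2 with Acmsd, the first enzyme of the route with the oxidative exit: Pearson r = 0.82 and Spearman rho = 0.86 (permutation p = 1e-05 for each, the smallest possible; adjusted p = 4.67e-05 and 0.00014). Without the 2 mice farthest from the median of Tdo2, r was 0.83. After the diet terms, linear in protein and exchange, were removed, r was 0.70 and rho 0.74 (adjusted permutation p = 5.6e-05 and 0.00028). The pair thus also moved together beyond those terms. The Y-linked minus Xist value was not among the terms removed, and its part in this correlation was not tested. Correlation within single diet combinations was not tested. Kynu with Acmsd had r = 0.54 and rho = 0.64, and 0.34 and 0.38 after the diet terms.

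**Figure D5:**
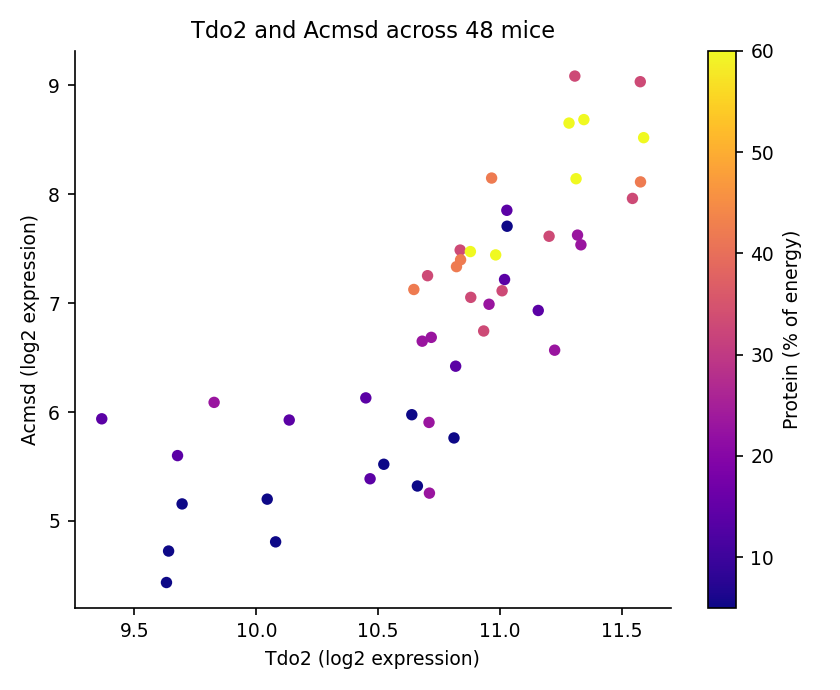
Acmsd (y axis) against Tdo2 (x axis), both as log2 expression, with 1 point per mouse (n = 48) coloured by percent of energy from protein. The points follow 1 band (r = 0.82) that runs from 5% protein mice at the lower left to 33% and 60% mice at the upper right.

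Acmsd and Qprt were only weakly related (r = 0.27, rho = 0.33, adjusted p = 0.0695 and 0.04). After the diet terms, their r was 0.33 and rho 0.33 (adjusted permutation p = 0.0302 and 0.0404). Ido2 and Acmsd had r = -0.091. The many calls among the other pairs leaned on the medium energy 14/29/57 mouse: without it, 14 of 28 pairs passed and the median r was 0.33, and Kmo with Kynu, for example, went from r = 0.75 to 0.49. Tdo2 with Acmsd was 0.85 without that mouse. Of all pairs of the 16926 genes, 18.8% had an r at least as far from 0 as 0.36, that of the weakest enzyme pair that passed. Without that mouse, the weakest of the 14 pairs had 0.378, and 17.3% of all pairs were at least as far from 0. All points share the array, so array-wide differences enter every pair.

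That mouse, the only one of its combination, held the lowest value of 48 for 7 of the 8 enzymes. Its log2 levels were 9.37 for Tdo2, 4.05 for Ido2, 7.08 for Afmid, 8.10 for Kmo, 6.04 for Kynu, 7.47 for Haao and 6.17 for Qprt. Acmsd, at 5.94, lay within the range of the 4 high energy mice on the same composition (5.39 to 6.93). The mouse also had the lowest mean of the hepatocyte markers (10.85, against 11.35 in the next) and the highest of the macrophage markers (10.12, against 7.97 in the next). The part of those markers in its enzyme levels was not tested. Without it, the slopes were 0.20 for Tdo2, 0.19 for Kynu, 0.14 for Haao, 0.51 for Acmsd and 0.0025 for Qprt. In that fit 4 of the 8 enzymes passed, and 1289 of all 16926 genes did.

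Around the 8 enzymes, branches off kynurenine and the serotonin route had 9 of 10 genes tested, of which 1 rose and 0 fell. Aadat, a transaminase that makes kynurenic acid, went from 8.59 ± 0.31 (n = 10) at 5% to 9.24 ± 0.49 (n = 6) at 60% (slope 0.18 ± 0.034, adjusted p = 0.00135). Kyat1, which catalyses the same reaction, had -0.12 ± 0.042 (adjusted p = 0.0668), and Ddc, which decarboxylates aromatic amino acids, 0.094 ± 0.036 (adjusted p = 0.0915). The median slope of the list was 0.0073. Ido1, the inducible dioxygenase of immune cells, had a mean of 1.31, close to the filter limit of 1.17.

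Of the oxidation enzymes below Acmsd, 3 of 8 rose and 0 fell, with a median slope of 0.044. Gcdh (glutaryl-CoA dehydrogenase) had a slope of 0.13 ± 0.033 (adjusted p = 0.0138), Dld (the dihydrolipoyl dehydrogenase shared by oxoacid complexes) 0.091 ± 0.024 (adjusted p = 0.0159) and Echs1 (enoyl-CoA hydratase) 0.10 ± 0.031 (adjusted p = 0.0377). Their slopes were a fraction of that of Acmsd, and 0 of the 8 passed with the array interquartile range as a term.

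On the NAD side, 0 of 10 genes of NAD synthesis and salvage passed (median slope 0.013). Nadsyn1, which amidates the product of the Qprt route to NAD, had -0.059 ± 0.028 (adjusted p = 0.179), the mitochondrial NAD kinase Nadk2 had 0.066 ± 0.032 (adjusted p = 0.183) and Nmrk1, a nicotinamide riboside kinase, -0.087 ± 0.054 (adjusted p = 0.292). Nampt, the rate-limiting enzyme of nicotinamide salvage, had -0.070 ± 0.046 (adjusted p = 0.323).

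Of 11 genes tested for NAD and nicotinamide use, 1 rose and 0 fell, with a median slope of -0.048. That gene was Nnmt, which methylates nicotinamide and so removes it from salvage, from 3.33 ± 1.44 (n = 10) at 5% to 7.35 ± 0.18 (n = 6) at 60%. Its slope was 0.77 ± 0.11 (adjusted p = 1.11e-05), and 0.63 with the interquartile range as a term (adjusted p = 0.000775). Sirt3 had 0.096 ± 0.039 (adjusted p = 0.111) and Sirt6 -0.097 ± 0.040 (adjusted p = 0.119).

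Transporters of tryptophan and other large neutral amino acids split, with 1 of 6 tested rising and 2 falling. Slc43a1 (LAT3), a facilitative carrier, rose from 2.94 ± 0.56 to 4.44 ± 0.84 (slope 0.30 ± 0.056, adjusted p = 0.000748). The exchangers Slc7a5 (-0.21 ± 0.046, adjusted p = 0.00552) and Slc7a8 (-0.40 ± 0.11, adjusted p = 0.0259) fell. With the interquartile range as a term neither of the falling ones passed, and Slc43a1 and Slc16a10, the aromatic amino acid carrier TAT1, were the 2 that rose.

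Kynurenine and kynurenic acid can bind the aryl hydrocarbon receptor. Of 8 genes tested for that receptor and its targets, 0 rose and 2 fell, with a median slope of -0.10. Those that fell were Ahr itself (-0.19 ± 0.044, adjusted p = 0.00706) and Nfe2l2, the oxidative stress factor (-0.15 ± 0.033, adjusted p = 0.00437), and neither passed with the interquartile range as a term. Arnt, its partner, had -0.10 ± 0.040 (adjusted p = 0.103), and Cyp1a1, its classical target, had a mean of 1.64 with a slope of -0.045.

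Of 9 genes for the glucocorticoid receptor and its targets, 0 rose and 1 fell, with a median slope of -0.11. Sgk1 had -0.24 ± 0.078 (adjusted p = 0.0488; 0.440 with the interquartile range as a term), Zbtb16 -0.21 ± 0.075 (adjusted p = 0.0744) and Mt2 -0.37 ± 0.14 (adjusted p = 0.085). Tat, the tyrosine transaminase that is induced with Tdo2 by glucocorticoids, had 0.039 ± 0.030 (adjusted p = 0.391). None of 6 liver transcription factors tested passed (Cebpb -0.074 ± 0.051, adjusted p = 0.348; Cebpa 0.058 ± 0.044, adjusted p = 0.391; Ppara -0.059 ± 0.057, adjusted p = 0.521).

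Of 6 periportal genes tested, 3 rose, and 0 passed once the interquartile range was a term. They were Hal, the histidine-degrading lyase (0.23 ± 0.048, adjusted p = 0.00245), Cyp2f2 (0.26 ± 0.067, adjusted p = 0.0147) and Aldh1b1 (0.24 ± 0.065, adjusted p = 0.0193). Of 8 pericentral genes, 1 rose, Oat, an ornithine transaminase, with a slope of 0.34 ± 0.050 (adjusted p = 2.2e-05). The mean periportal level ran from 8.06 to 9.18 at 5% and from 8.82 to 9.53 at 60%, and the pericentral level from 7.60 to 8.65 and from 7.65 to 8.43. Their part in the enzyme slopes was not tested.

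The genes whose levels were most like those of Acmsd over 48 mice, by Pearson correlation among 16918 others, were Fh1 (r = 0.87), Cth (0.87), Gm5424 (0.86), Nnmt (0.83) and Aass (0.83). Fh1 is fumarate hydratase, Cth makes cysteine from cystathionine, and Aass opens lysine degradation. Gm5424 resembles the argininosuccinate synthase gene Ass1, and its probe set may not separate both. All 5 had positive protein slopes of 0.23 to 0.77 that passed the test, and without the medium energy 14/29/57 mouse their r was 0.83 to 0.90.

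Those most like Qprt were Amacr (0.74), Aox3 (0.74), Adh4 (0.73), Ces3a (0.73) and Scrn3 (0.73), and their r without that mouse was 0.48 to 0.62. Aox3 is an aldehyde oxidase and Adh4 an alcohol dehydrogenase of liver. None of these 5 passed for protein, with slopes between 0.0014 and 0.10. These lists are ranked descriptions and carry no test.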

How the data were processed

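Total RNA from mouse liver was labelled with biotin and hybridized to Affymetrix expression arrays, per the labels' protocols. The authors deposited 1 value for each of 41345 probe sets and 48 arrays. These deposited values, from -0.51 to 13.42, were read as log2 expression from their range and used unchanged; their unit, background correction and normalization are not given in the sources used here. Array medians were 1.57 to 1.86, and 0 arrays were duplicates.

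Of the probe sets, 23521 had 1 gene symbol in the platform annotation. A gene was tested if its mean passed 1.17, the 30th percentile over probe sets. Models were fitted over all 48 mice with limma 3.58.1 in R 4.3.3 (lmFit, eBayes with a trend). Tests were two-sided, adjusted by Benjamini-Hochberg over 16926 genes at a threshold of 0.05. Every adjusted p of a gene comes from limma. Values with 100000 permutations (NumPy 2.4.6) are the Acmsd minus Qprt difference, with residuals of the reduced model permuted, and the correlations. The scripts were tested on simulated data. 1 item is not reported here.

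The enzymes, lists and models were chosen with earlier results of these data known. The text names all 8 enzymes, of each pathway list every gene past the threshold and the 3 with the smallest p, and the 5 genes most like Acmsd and Qprt; Nampt, Tat, Ido1, Cyp1a1, Slc16a10, Cps1, Col1a1 and the zone markers were named after their values were seen.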

Additional observations from a re-analysis of the deposited data

Results flagged for a closer look

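Kmo on the high energy 5/75/20 diet had 1 mouse far above the other 3. Its log2 level was 10 against 9.46 to 9.53 in the others, a gap of 0.873 of the whole range (n = 4). It was the same mouse that had the highest Acmsd level at 5% protein (7.71). Of 27 values tested for such a gap in 3 combinations of 4 mice, 1 had it, and chance gives about 1 in 20.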

How the results depend on the processing

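Acmsd and Kynu passed for protein in all 17 alternatives and in all 48 fits that left out 1 mouse, with slopes per 10 points of 0.43 to 0.59 and 0.17 to 0.28 over 16 alternatives, and of 0.74 and 0.31 per doubling of the protein share in the other. Tdo2 passed in 16 of 17 (0.14 with the array interquartile range as a term, adjusted p = 0.0514). Haao passed in 12 of 17; it did not with the interquartile range (0.087), with that and the Y-linked minus Xist value (0.080), without the 12 arrays of smallest interquartile range (0.16), with protein in exchange for carbohydrate alone (0.14) or with the macrophage marker mean (0.14). The Acmsd minus Qprt slope kept its call at 0.43 to 0.52 over 4 alternatives and 0.48 to 0.52 over 48 fits without 1 mouse.

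The number of enzymes that passed for protein was 2 with the interquartile range, where 113 of all genes (0.668%) passed, and 3 to 5 without 1 mouse. It was 5 without high energy 60/20/20 mouse 2, where Kmo passed (0.085, adjusted p = 0.0438) and 3004 of all 16926 genes did. From 5% to 14% protein it was 2 with array weights (Haao 0.81, Afmid 0.46), where 592 of all genes (3.5%) passed, and 0 to 1 without 1 mouse. Among slopes that were not called, those of Ido2 and Qprt turned sign, and those of Afmid and Kmo stayed positive in all 17 alternatives and 48 fits without 1 mouse. Ido2 had -0.017 with array weights, -0.014 with protein in exchange for carbohydrate, -0.0060 with the macrophage mean and -0.018 to 0.052 without 1 mouse. Qprt had -0.0082 with the interquartile range, -0.0032 with the macrophage mean and -0.0043 with both the interquartile range and the Y-linked minus Xist value. Without the medium energy 14/29/57 mouse, the r of Tdo2 with Ido2 was -0.20 and that of Afmid with Qprt -0.038. After quantile normalization Acmsd with Qprt (0.31) and Afmid with Qprt (0.33) passed.

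The count of all genes called for protein, 1187, moved most. It was 113 with the interquartile range, 133 with that and the Y-linked minus Xist value, 263 with protein in exchange for carbohydrate, 334 without the 12 arrays of smallest interquartile range, 630 with combination as a random block, 709 with the macrophage mean, 719 with protein in exchange for fat, 3652 on the log2 of the protein share and 4301 with array weights. Without 1 mouse it was 588 to 3004, and 9 mice moved it by over 1.5 times: high energy 60/20/20 mice 1, 2 and 3 (2147, 3004 and 620), 5/20/75 mice 1 and 2 (726 and 743), 5/48/48 mice 1, 3 and 4 (784, 778 and 758) and the 42/29/29 mouse (588). Of the calls, 48.0% were upward, against 57.0% after quantile normalization and 31.1% with arrays centred on their medians. The cause of these moves was not tested. The macrophage mean, the joint term and the correlations without that mouse were added after the data were seen.

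The number of arrays limits the precision: 5 mice were at low energy, the 20 combinations held 1 to 4 mice, and 5% protein was fed only at high energy.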
